A study of Mus musculus with 14 samples.

Results

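Mir700 and Mir671 are annotated miRNA genes that overlap exons of the protein-coding genes Rcan3 and Chpf2, and the pile-up sites at their stem-loops were followed through 8 Degradome-seq libraries of mouse embryonic stem cells (ESCs). The members were every pile-up site whose gene field named Rcan3, Mir700, Chpf2 or Mir671, and every RNA-seq row with one of these 4 names. The Drosha table held 2 such sites among 3919, and the Dicer table held the same 2 among 4666. The RNA-seq table held 2 of the 4 names among 22376 genes, Rcan3 and Chpf2, and no row named Mir700 or Mir671.

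The Drosha comparison used ESCs with a floxed Drosha allele (Drosha fl/fl) and CreERT2 in the Rosa26 locus. The 2 Drosha-deficient libraries came from cells given 100 nM 4-hydroxytamoxifen for 72 h and then kept for 48 h without it, and the 2 control libraries from untreated cells with the same alleles, so deletion of Drosha and exposure to 4-hydroxytamoxifen cannot be told apart. The Dicer comparison used Dicer fl/fl ESCs transduced with virus, with 2 Dicer-deficient libraries from cells that received GFP and Cre and 2 control libraries from cells that received GFP alone. The protocol describes a sort of GFP+ cells on day 3 and 2 further days of culture. RNA-seq was made from the Drosha line, with 3 control and 3 Drosha-deficient libraries. The labels number the libraries of a group but do not say whether they came from separate cultures, so p-values measure only the spread between libraries, which may be technical.

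In Degradome-seq, an RNA linker is ligated to polyadenylated RNA that carries a 5′ monophosphate, so that reads begin at the ligated end. Values are RPM, the reads that start at a site scaled to the mapped reads of the library. The steps between RPM values implied 28682300 to 34547609 mapped reads in the 8 libraries. Every value was then a whole number of reads within 0.1 read. These totals are inferred, and exceed the uniquely mapped reads that the paper gives for the Drosha-line libraries. The authors chose sites by the stacking pattern of reads in both control libraries of each line, with a classifier trained on known miRNA cleavage sites. Sites were thus selected in the controls and not in the deficient cells. Of the ESC markers, 8 of 8 were in the RNA-seq table, at a mean log2 CPM of 6.14 to 9.78. All 8 markers of the feeder fibroblasts on which the cells were grown were also listed, at −0.63 (Lum) to 6.60 (Col1a1). These are means over control and Drosha-deficient libraries together, so whether feeder RNA moved with the results was not tested, and the mean of 6.58 for Drosha itself does not check the deletion. The paper measured both deletions by qRT-PCR of Drosha or Dicer mRNA and of selected mature miRNAs, and reports the losses. Its qRT-PCR values were not used here.

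Drosha, with its partner Dgcr8, cuts both arms of a stem-loop in a primary miRNA transcript and releases a hairpin that Dicer then trims to the mature miRNA duplex. The cut on the 3′ arm leaves a downstream fragment with a 5′ monophosphate and, in a polyadenylated transcript, a poly(A) tail. Rcan3 belongs to the regulators of calcineurin, the phosphatase that activates NFAT factors. Chpf2 belongs to the glycosyltransferase family that polymerizes chondroitin sulfate.

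The stem-loops are shown because the position of each pile-up site can be read from them. Each is given 5′ to 3′ as RNA with 15 nt on either side, and the mature miRNA arms annotated by RefSeq (GRCm38.p6) are in capitals. The Mir700 sequence is chr4:135416546-135416637 on the minus strand and the Mir671 sequence is chr5:24592117-24592206 on the plus strand (GRCm38).
Mir700: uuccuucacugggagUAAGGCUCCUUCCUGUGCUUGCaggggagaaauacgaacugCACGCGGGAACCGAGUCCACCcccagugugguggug
Mir671: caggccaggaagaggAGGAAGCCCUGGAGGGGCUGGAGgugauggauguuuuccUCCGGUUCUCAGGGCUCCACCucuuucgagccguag

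The pile-up site of Mir700 was at chr4:135416560 on the minus strand, and that of Mir671 at chr5:24592192 on the plus strand. Each was exactly 1 base beyond the 3′ end of the 3p arm, the first lower-case base after the second run of capitals. Of 103 sites within annotated miRNA exons in either table, 97 had an annotated mature sequence, and 53 of those (54.6%) also lay 1 base beyond a mature 3′ end. The known miRNA sites used to train the authors' classifier were defined in this way. In the genome, the 3 bases before each member site were ACC and did not match the end of the RNA linker, whereas 30.8% of the sites of the Drosha table and 17.4% of those of the Dicer table did match by 3 bases. The first 30 bases at each member site occurred 1 time in the genome. Neither host gene held another pile-up site on either strand in either table.

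The seeds, bases 2 to 8 of each mature miRNA, are printed in capitals because they show that the 4 arms belong to no shared family.
miR-700-5p: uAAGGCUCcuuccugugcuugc
miR-700-3p: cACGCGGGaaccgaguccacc
miR-671-5p: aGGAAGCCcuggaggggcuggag
miR-671-3p: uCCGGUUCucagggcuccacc
Among 1738 mature mouse sequences of the RefSeq table, each of these seeds occurred in 1 only. The last 6 bases were the same in miR-700-3p and miR-671-3p, UCCACC, and 4 of the 1738 sequences ended in them. The reads of both sites therefore began directly after the same 6 bases.

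The annotation placed the stem-loops differently in their hosts. Mir671 lay wholly in coding sequence: all 60 nt between its cleavage ends were in exon 4 of Chpf2-201 and of Chpf2-202 (GENCODE vM21), and the site fell on the second base of codon 712, with 170 nt of coding sequence still to come. Mir700 did not lie wholly in coding sequence. The last exon of Rcan3-201, which is exon 5, ends at 135416598 on the genome, its 5′ edge on the minus strand, so the stem-loop crossed the intron-exon boundary. Here the same Mir700 sequence is printed with the exonic bases in capitals.
Mir700 by exon: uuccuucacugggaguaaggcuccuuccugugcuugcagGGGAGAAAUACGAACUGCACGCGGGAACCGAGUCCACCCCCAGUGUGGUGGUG
Of the 62 nt between the cleavage ends, 38 were exonic and coding, and the other 24 were intronic. All 21 bases of miR-700-3p were coding, and 0 of the 22 bases of miR-700-5p were exonic. The site fell on the first base of codon 194, 38 nt inside the exon, with 138 nt of coding sequence to come. RefSeq gave the same boundary: 2 of 2 Rcan3 transcripts had the site in an exon and 0 of 2 held the whole stem-loop in an exon, against 2 of 2 for Chpf2. A spliced Rcan3 mRNA thus contains the 3′ arm of Mir700 but not its 5′ arm.

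**Figure D1:**
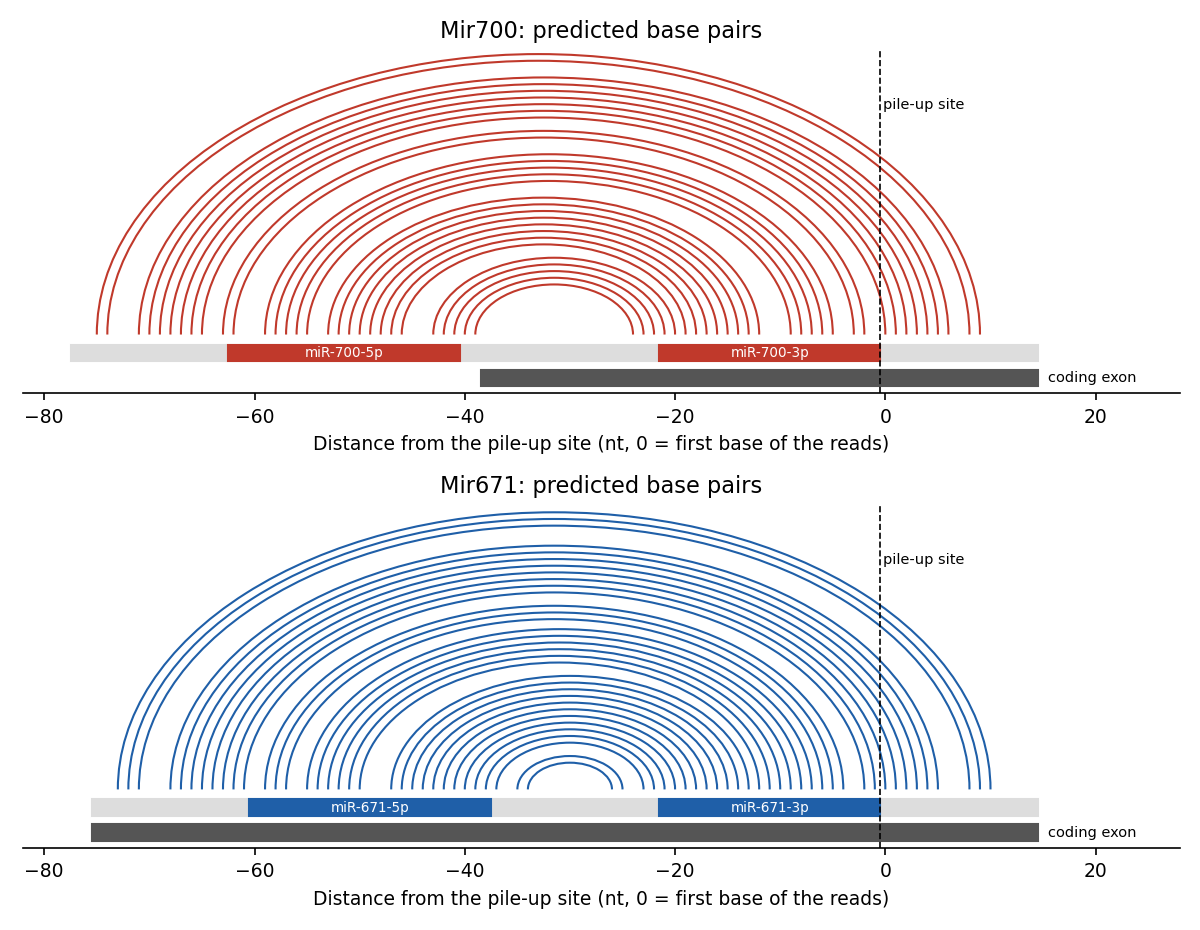
Predicted base pairs (arcs) of the Mir700 and Mir671 stem-loops, with the distance from the pile-up site in nt on the x axis. Coloured boxes are the mature arms, grey boxes the rest of the folded sequence, dark boxes the coding exon and the dashed line the start of the pile-up reads; the coding exon covers the whole Mir671 sequence but only the 3′ side of Mir700.

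The fragment downstream of each site would also differ between the hosts. From the site to the annotated 3′ end, Rcan3-201 holds 4253 of its 5111 nt. Chpf2-201 holds 1940 of 5371 nt and Chpf2-202 holds 293 of 3715 nt. The site was thus preceded by 16.8% of the spliced Rcan3-201 and by 63.9% and 92.1% of the Chpf2 transcripts. Rcan3-202 and Rcan3-203 have no exon at the site. Neither do Chpf2-203 to Chpf2-206.

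**Figure D2:**
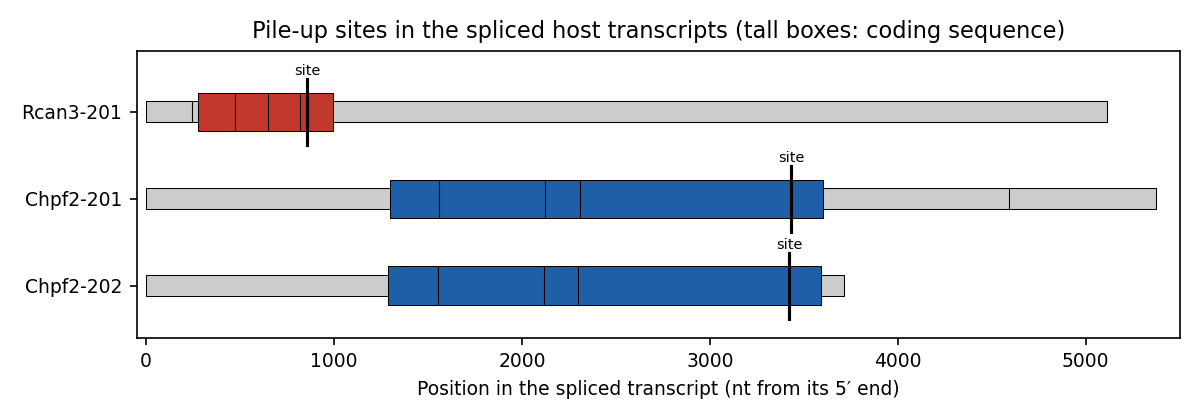
Spliced host transcripts with an exon at the pile-up site, drawn to scale in nt from the 5′ end. Tall coloured boxes are coding sequence, low grey boxes untranslated sequence, thin lines exon boundaries, and the black mark the site, which lies near the start of the last exon of Rcan3-201 and near the end of the coding sequence of both Chpf2 transcripts.

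The folds were predicted with RNAfold. They are set beside the 68 miRNA and 41 other stem-loops read from the authors' list of those cleaved by Drosha. The paper's text counts slightly more non-miRNA stem-loops than were read from that list. That list was chosen on the Drosha comparison and required a 3′ overhang of a few nt, so membership and overhang are no findings. Mir671 had a minimum free energy of −52.5 kcal/mol, and 2 of the 68 miRNA stem-loops were lower (median −41.4). Its 33 base pairs involved 73.3% of the bases, and its terminal loop was 7 nt. Mir700 had −38.0 kcal/mol, and 42 of the 68 were lower. Its 29 base pairs involved 63.0% of the bases, and 5 of the 68 miRNA stem-loops had a smaller share (median 72.2%). Its terminal loop of 14 nt was exceeded in 3 of the 68, whose median was 6.5 nt. The other stem-loops had a median of −23.8 kcal/mol, and 3 of 41 were lower than Mir700. These were in Canx (−41.3), Mir5121 (−41.1) and Mir3473d (−52.7). The other stem-loops thus include some in annotated miRNA genes, such as Mir5121 and Mir3473d, which the list marks as absent from the miRNA database MirGeneDB. Both member stem-loops had a 2-nt 3′ overhang between the ends of the mature arms, the commonest value.

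**Figure D3:**
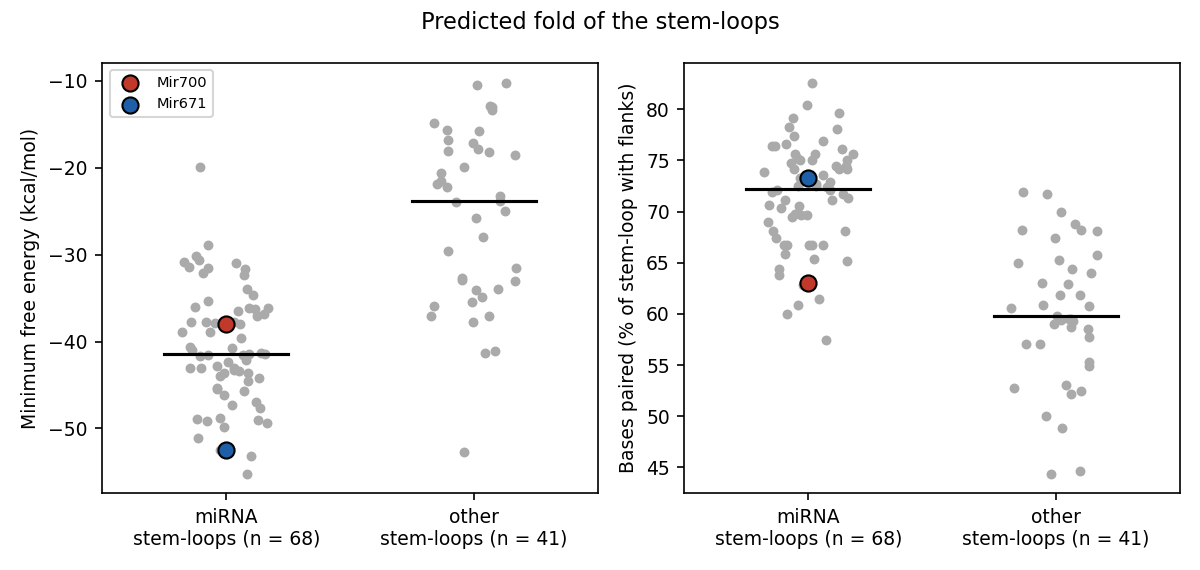
Minimum free energy (left, kcal/mol) and share of bases paired (right, %) of 68 miRNA and 41 other stem-loops listed by the authors. Each point is a stem-loop with 15-nt flanks, black lines are medians; Mir671 is near the lowest energy and at a typical share of paired bases, Mir700 near the median energy and among the lower shares.

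Sequence motifs known from primary miRNAs were searched on the transcript strand. These were UG at −14 nt from the 5′ cleavage end, UGU or GUG within 21 to 26 nt after that end, and CNNC with its first C 16 to 18 nt into the downstream fragment. Positions count from 1 at the first base on each side of a cut. Each member held 1 of the 3, and it was not the same motif. Mir700 held CNNC, with its first C at nt 18, which 63.6% of the 66 miRNA stem-loops placed in the genome also held. Mir671 held a match for UGU or GUG from nt 24, as did 45.5%. Neither held UG at −14, which 30.3% held. The first 30 bases of each downstream fragment are given, with the C bases of CNNC in capitals.
Rcan3 fragment: cccagugugguggugcaCguCugugagagc
Chpf2 fragment: ucuuucgagccguagagccagggcuggugc
Of the 66, 45.5% held 1 motif, as both members did. A match is a description of these letters and no match says only that they are not at these places.

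At the Mir671 site in Chpf2, the control libraries of the Drosha line had 21.02 and 18.3 RPM, from 603 and 536 reads. The Drosha-deficient libraries had 3.23 and 2.99 RPM, from 100 and 86 reads. The groups did not overlap, and the counting intervals of the deficient libraries (Poisson, 95%, counting error only) reached at most 3.92 RPM while those of the controls began at 16.8 RPM. The mean of 19.7 ± 1.90 RPM (SD, n = 2) in the control cells compared with 3.11 ± 0.168 RPM (SD, n = 2) in the Drosha-deficient cells, or 15.8% of the control. In limma on log2(RPM + 0.1), a scale that slightly understates changes at low values, the log2 fold change was −2.62 (SE 0.35, 95% interval −3.36 to −1.89), with a Benjamini-Hochberg FDR of 2.05e-05 over all sites. It was called decreased, which took an FDR below 0.05 together with a fold change beyond −1.5 on the log2 scale.

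Many other sites were lower as well. Of the 3919 sites, 37.6% were called decreased, 47.4% were lower at an FDR under 0.05 whatever the size, and 59.9% had both Drosha-deficient libraries below both controls. The middle of all sites, their median change, was −0.93 (log2), and 401 sites (10.2%) were lower than that of Mir671. Scaling decides how large the shift is: 1473 sites were called decreased and 375 increased on RPM, but 636 and 780 in edgeR on the whole reads with TMM scaling, under which the median was −0.03. TMM was computed over these sites alone, so it takes out a change that most of them share. The Mir671 site was called decreased under that scaling too, at a log2 fold change of −1.73 (FDR 0.000659). In bulk samples, fewer cells that carry an RNA and less of it per cell cannot be told apart.

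At the Mir700 site in Rcan3, the control libraries of the Drosha line had 6.28 and 3.25 RPM, from 180 and 95 reads. The Drosha-deficient libraries had 2.06 and 1.70 RPM, from 64 and 49 reads. All deficient values lay below the controls, but the controls differed from each other by more than the lower of them differed from the deficient libraries, and the counting interval of the lower control began at 2.63 RPM while that of the higher deficient library ended at 2.64 RPM. The mean was 4.76 ± 2.14 RPM (SD, n = 2) in the control and 1.88 ± 0.256 RPM (SD, n = 2) in the Drosha-deficient cells, or 39.5%. The log2 fold change was −1.23 (SE 0.42, 95% interval −2.12 to −0.34, limma FDR 0.0181), short of the size required for a call. Of all sites, 43.7% had a lower log2 fold change. The authors listed the Mir700 stem-loop as cleaved, which took a decreased site at the same thresholds in their own test of read counts. They also ran a gene-specific degradome qRT-PCR with primers for Rcan3 and Chpf2, and reported Drosha dependence for selected targets. Those measurements are not part of the values used here. In these libraries, the size of the difference at the Mir700 site depended on the scaling and on single libraries. Median centring and TMM were computed over the pile-up sites alone, whose median change was −0.93, so they take out a shared decrease. With each library centred on the median of its sites the difference was −0.63 (limma FDR 0.136), and with TMM in edgeR −0.37 (FDR 0.364). With the implied mapped reads as library sizes, added after the data were seen, it was −1.33 (FDR 0.0122) in edgeR. Without control replicate 1 it was −0.76 (limma FDR 0.265), without control replicate 2 it was −1.69 (FDR 0.0424) and was called, and without Drosha-deficient replicate 2 it was −1.09 (FDR 0.0537).

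**Figure D4:**
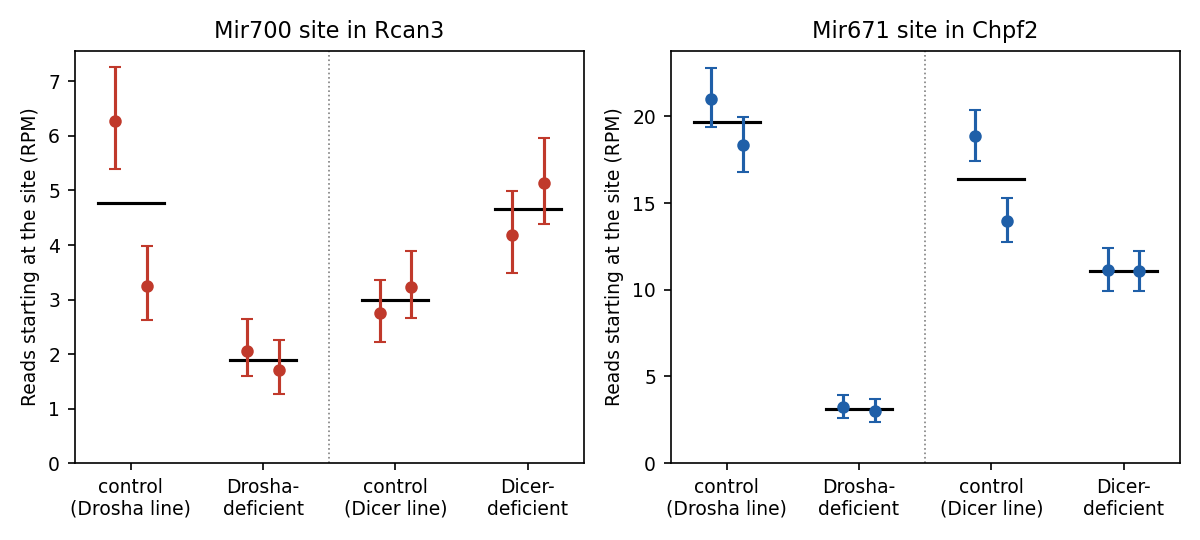
Reads starting at the Mir700 site (left) and the Mir671 site (right) in RPM in each library. Points are libraries with 95% Poisson counting intervals and black lines group means; the y axes differ, with Mir700 between 1.70 and 6.28 RPM and Mir671 between 2.99 and 21.02 RPM.

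The Dicer comparison addressed whether a site also depends on mature miRNAs, since Dicer acts after the cut by Drosha. At the Mir671 site, the Dicer-line controls had 18.8 and 13.99 RPM and the Dicer-deficient libraries 11.1 and 11.1 RPM. Both deficient values were lower than both controls, as at 27.4% of all sites. The mean was 16.4 ± 3.43 RPM (SD, n = 2) in the control and 11.1 ± 0.0405 RPM (SD, n = 2) in the Dicer-deficient cells, or 67.5%. The log2 fold change of −0.55 did not pass the test (SE 0.33, 95% interval −1.34 to 0.25, limma FDR 0.573).

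At the Mir700 site, the Dicer-line controls had 2.75 and 3.23 RPM and the Dicer-deficient libraries 4.19 and 5.13 RPM. Here both deficient values were higher, as at 16.8% of all sites, with means of 2.99 ± 0.343 RPM (SD, n = 2) and 4.66 ± 0.666 RPM (SD, n = 2). The log2 fold change of 0.62 did not pass the test either (SE 0.37, 95% interval −0.28 to 1.52, limma FDR 0.573). In the Dicer table, limma called 0% of the 4666 sites decreased and 0% increased, although 459 had an unadjusted p under 0.05. edgeR with TMM called 0 as well (413 with an unadjusted p under 0.05), and DESeq2 called 6 decreased and 30 increased, neither member among them. The paper does report decreased sites in Dicer deficiency, from edgeR with TMM on its own raw counts at the same thresholds. The reads used here were recovered from RPM and cover the listed sites only, so the counts of calls are not equivalent.

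The difference between the comparisons was tested as an interaction at the 2595 sites held by both tables, of which 1.70% were lower in the Drosha comparison at an FDR under 0.05. That share moved with the libraries used: 0 of the 2595 passed without any of 5 of the 8 libraries, 14 without Dicer control replicate 2, 425 without Dicer-deficient replicate 2 and 726 without Dicer control replicate 1. It was 44 with all libraries, and 123 with centred libraries. In the other direction, 80 passed with all libraries and 287 with centred ones. The median difference over the shared sites was −0.46 with all libraries. The Mir671 site was among the 44, with a difference of log2 fold changes of −2.08 (SE 0.44, 95% interval −3.07 to −1.09, limma FDR 0.0424). That call is close to the threshold: it was lost without any of 6 of the 8 libraries (FDR 0.0885 to 0.158), and kept without Dicer control replicate 1 (FDR 0.00901) or Dicer-deficient replicate 2 (FDR 0.0423). The Mir700 site had a difference of −1.85 (SE 0.58, 95% interval −3.15 to −0.54) at an FDR of 0.0738 in limma. Of the shared sites, 21.2% had a lower difference than the Mir671 site and 25.7% a lower one than the Mir700 site.

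The ratio of the Mir671 site to the Mir700 site within a library does not depend on how libraries are scaled. It was 3.35 and 5.64 in the Drosha-line controls and 1.56 and 1.76 in the Drosha-deficient libraries. In the Dicer line it was 6.85 and 4.32 in the controls and 2.65 and 2.15 in the Dicer-deficient libraries. In both lines the ratio was lower in both deficient libraries than in both controls. The ratio was not tested, and how often other pairs of sites differ in this way was not counted. In the Dicer line the change of neither site passed the test by itself. The Mir671 site had more reads than the Mir700 site in all 8 libraries.

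Among all 95 miRNA sites of the Drosha table, 93 had a log2 fold change below 0 and 65 were called decreased by limma, with a median of −1.97. edgeR with TMM called 30 of the 95 decreased. Mir671 ranked towards the strong end, with 12 of the 95 at a lower log2 fold change, and Mir700 towards the weak end, with 72 lower. In the Dicer table the median of 80 miRNA sites was −0.10. Neither limma nor edgeR with TMM called any of them, and DESeq2 called 0 decreased and 2 increased. Of the 72 miRNA sites in both tables, 41 were lower in both comparisons, as Mir671 was. Another 29 were lower in Drosha deficiency and higher in Dicer deficiency, as Mir700 was (signs only, with no test).

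**Figure D5:**
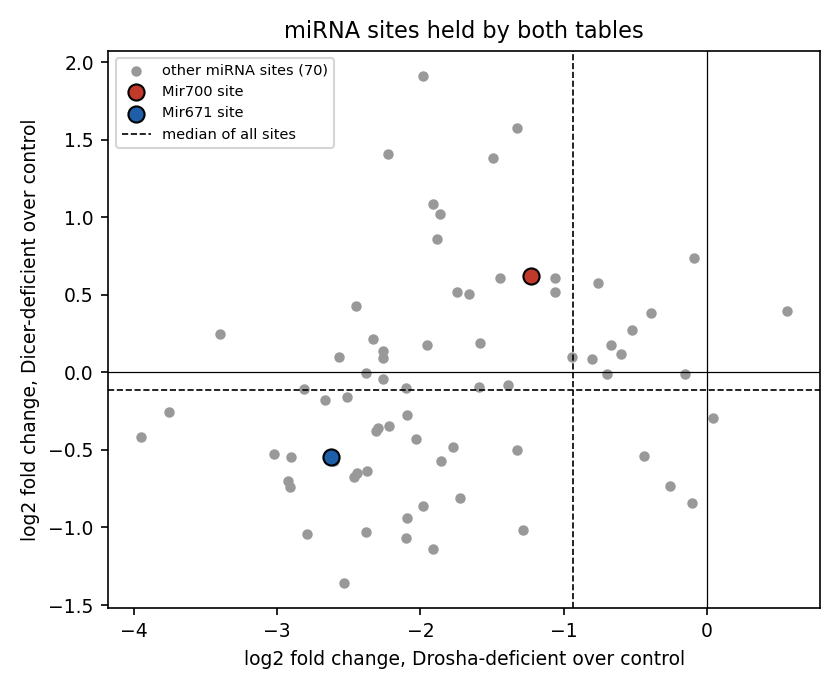
Log2 fold changes of the 72 miRNA sites held by both tables, with the Drosha comparison on the x axis and the Dicer comparison on the y axis. Each point is a site, dashed lines are medians over all sites of each table; Mir671 lies at −2.62 and −0.55, Mir700 at −1.23 and 0.62.

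Only 3 sites of the 2 tables lay in an annotated miRNA gene and in coding sequence on the same strand. Beside the members, this was the site of Mir1306 in Dgcr8, the RNA-binding partner of Drosha, at chr16:18284247 on the minus strand, held by the Drosha table alone. Its hairpin (RefSeq, chr16:18284239-18284317, mature arms in capitals) is shown since it is the closest like case, with both arms coding.
Mir1306: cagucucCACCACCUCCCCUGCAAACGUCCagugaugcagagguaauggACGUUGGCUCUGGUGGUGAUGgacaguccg
This site too lay 1 base beyond the 3p arm. It had 1.22 and 0.89 RPM in the controls and 0.452 and 0.764 RPM in the Drosha-deficient libraries. The groups did not overlap, as at 59.9% of all sites, and the log2 fold change of −0.73 (SE 0.52, limma FDR 0.231) did not pass the test. The 28 miRNA sites in introns of protein-coding genes had a median of −1.90 with 19 called decreased, and the 26 in noncoding genes a median of −2.15 with 21 called. The 8 in untranslated exons had a median of −1.49 with 4 called, and the 5 in other exons of protein-coding genes −1.28 with 2 called. The median of the 3 coding sites was −1.23, with 1 called.

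By their pattern over the 8 libraries, the sites most like Mir671 among 130 of similar control level were those of Mir19b-1 (r = 0.983), Ddx39b (r = 0.969) and Mir92-1 (r = 0.969). The Mir19b-1 and Mir92-1 sites are in the miR-17-92 host transcript Mir17hg, and their log2 fold changes in Drosha deficiency were −2.91 and −2.09. That of Ddx39b, an RNA helicase gene, was −1.61. The sites most like Mir700 among 211 were those of Mir19b-2 (r = 0.906), Clstn1 (r = 0.857) and Mir485 (r = 0.849). These 3 had log2 fold changes of −1.86, −1.13 and −1.49 in Drosha deficiency and of 1.02, 0.39 and 1.38 in Dicer deficiency. Those Dicer values did not pass the test. The correlations are Pearson's r of log2(RPM + 0.1), share libraries and their scaling, and describe likeness only. Because the sites were chosen by likeness over these same libraries, their similar fold changes follow from that choice.

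The order of the hosts by mRNA was opposite to that of the sites. Rcan3 had an authors' mean log2 CPM of 6.29, above 84.9% of the genes listed, and Chpf2 had 3.61, above 58.4%. Per kb of exon the mean level was 15.3 CPM for Rcan3 and 2.19 CPM for Chpf2, which is 6.97-fold higher for Rcan3. The Chpf2 site, in contrast, had 4.13 times the RPM of the Rcan3 site in the Drosha-line controls and 5.49 times in the Dicer-line controls. Dgcr8, at 15.1 CPM per kb, was close to Rcan3 by this measure and had the weakest of the 3 coding sites. The length counts exons of all annotated transcripts, 7.70 kb for Dgcr8 and 5.11 kb for Rcan3. Without it, Dgcr8 had 117 CPM and Rcan3 78.0 CPM. The mRNA levels are means over control and Drosha-deficient libraries with no spread, and a gene total does not separate spliced from unspliced RNA or transcripts that hold the site from those that do not.

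The other genes of the hosts' pathways were read from lists. All 17 genes of the chondroitin sulfate list were in the RNA-seq table, at a median mean log2 CPM of 4.10 that ranged from −0.98 for Chsy3 to 6.02 for Dse, an epimerase of dermatan sulfate. Chpf, the paralog of Chpf2, had 4.72. All 10 genes of the calcineurin list were there too, with a median of 5.58. Rcan1, a paralog of Rcan3, had 5.70, Rcan2 had −0.98, and the calcineurin subunit gene Ppp3cb had 7.25. None of these 27 genes had an exonic pile-up site in either table, so 0 of 27 could be called in either direction. Of the 13 genes of miRNA biogenesis, with a median of 7.19, only Dgcr8 had exonic sites. These were 3 in the Drosha table, all in annotated miRNA genes, and 1 was called decreased: a site in the stem-loop Gm24572 at chr16:18284563, with a log2 fold change of −2.31 (limma FDR 0.000122). The Dicer table held that site alone of the 3 and it was not called there (−0.38, limma FDR 0.690).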

How the data were processed

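Degradome-seq was measured in 2 libraries per group and RNA-seq in 3. The authors trimmed reads, aligned them to GRCm38 with STAR, counted read starts and deposited, for each pile-up site, an unpooled RPM value from every library. The RNA-seq table holds the authors' mean log2 CPM over 6 libraries. Deposited fold changes, F statistics, p-values and FDR are the authors' own comparisons and were not used. The members and gene lists were chosen with earlier results of these data known. Named are all member sites and rows, miRNA sites in coding exons, the 3 most correlated sites within 2-fold of a member's control mean, and 3 pathway lists.

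Each table was tested with limma 3.58.1 (mean-variance trend, pseudocount 0.1 RPM, R 4.3.3). Whole reads were recovered for 100% of values, and edgeR 4.0.16 and DESeq2 1.42.0 were run on them as alternatives. Simulated counts were made for each table, with 200 sites changed by 3 log2 units. For the Drosha table (3919 sites), limma recovered 100% of these and called 0 of 3719 unchanged ones. For the Dicer table (4666 sites) it recovered 100% and called 0 of 4466. That change is larger than any at a member site, and recovery of smaller changes was not tested. Stem-loop sequences were taken from the authors' supplement, placed in the genome and folded with RNAfold 2.7.2 without lonely pairs. A floor of 3 reads was 0.0868 to 0.105 RPM, and all member values were above it.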

Additional observations from a re-analysis of the deposited data

Results flagged for a closer look

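A difference between the lines cannot separate the gene deleted from line, treatment and sorting. The Mir671 site in Chpf2 differed between the 2 lines at the threshold of the test, with all 8 libraries. It fell by 2.62 on the log2 scale in Drosha deficiency and had a log2 fold change of −0.55 in Dicer deficiency, which did not pass the test, and the difference of −2.08 had a limma FDR of 0.0424. That call was lost without any of 6 of the 8 libraries (FDR 0.0885 to 0.158). The Mir700 site in Rcan3 was lower in 2 of 2 Drosha-deficient libraries than in both controls and higher in 2 of 2 Dicer-deficient libraries than in both controls, as were 59.9% and 16.8% of all sites of the Drosha and the Dicer table. Its difference of −1.85 had an unadjusted p of 0.0110 and a limma FDR of 0.0738, which did not pass the threshold. Among the sites held by both tables, 21.2% had a lower difference than Mir671 and 25.7% a lower one than Mir700.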

How the results depend on the processing

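The Mir671 site was called decreased in Drosha deficiency under all 14 alternatives, between −2.72 and −1.73, and leaving out 1 library gave −2.72 to −2.52. The Mir700 site stayed below 0 in all 14, with leave-one-out values of −1.69 to −0.76. Its FDR was under 0.05 in 7 of the 10 alternatives that kept all libraries. The fold change threshold of 1 is among these, and at that threshold its −1.23 was a call. That alternative keeps the main fit and its FDR, so for either site it could not lose a call. In DESeq2 the Mir700 site was at −0.39 (FDR 0.493). In the Dicer comparison neither site was called under any of 14 alternatives, with leave-one-out values of −0.76 to −0.33 for Mir671 and 0.48 to 0.76 for Mir700. The count of sites called decreased in Drosha deficiency was 548 with a pseudocount of 1 RPM and 597 in DESeq2 (766 increased). It was 636 in edgeR with TMM (780 increased) and 871 with centred libraries (602 increased). Leaving out 1 library gave 907 (without Drosha control replicate 1) to 1519 decreased and 264 to 463 increased. edgeR with the implied mapped reads as library sizes, added after the data were seen, gave 1525 and 384, with Mir671 at −2.66 and Mir700 at −1.33. In the Dicer comparison DESeq2 gave 6 decreased and 30 increased, and leave-one-out fits 0 to 1 and 0 to 13, the highest without Dicer-deficient replicate 2. The replicate block gave 67 and 119 Dicer calls and 1475 and 375 Drosha calls. The labels do not say that equal numbers mark shared cultures, and same-numbered libraries deviated with a correlation of 0.132 (Drosha) and 0.527 (Dicer) across sites, so whether the numbers pair the libraries is not settled. Under the replicate block the difference between the lines was −1.85 for Mir700 (FDR 0.000896) and −2.08 for Mir671 (FDR 4.29e-05), so that Mir700 passed the threshold under it. It then called 934 of the 2595 shared sites lower in the Drosha comparison, against 44 without it, and 1 decreased and 2 increased among the 80 miRNA sites of the Dicer table. Leaving out 1 library gave differences of −2.31 to −1.38 and −2.29 to −1.86. Without flanks the free energy was −22.5 kcal/mol for Mir700 and −33.4 kcal/mol for Mir671, a shorter sequence by construction, and 42 and 4 of 68 miRNA stem-loops were lower. A leave-one-out fit leaves 1 library in a group, which is assumed to vary like the others. With 49 to 180 reads per library at the Mir700 site of the Drosha line, counting error is larger there than at Mir671.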
